A study of Homo sapiens with 18 samples.

Results

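Leukocyte adhesion molecules were followed through 8 genes, which were the integrin subunits ITGAL, ITGB2, ITGA4 and ITGB7, the intercellular adhesion molecules ICAM1 and ICAM3, and the surface proteins CD58 and CD44. Their probes were taken by annotated gene symbol, which gave 11 of the 49576 probes of the array and 8 of the 12696 genes named in the annotation. A probe was kept for testing when it was detected, with a detection p under 0.01, on at least 3 arrays. By this filter 7 of the 8 genes were tested among 10697 genes, and CD44 was left out.

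RNA came from Raji and DG75, established lines of Burkitt lymphoma, a tumour of B cells, and only Raji is positive for Epstein-Barr virus. Each line was left untreated, given 50 µM Bay-11 for 1 h or given 75 µM TPCK for 1 h. Bay-11 is an inhibitor of IkB phosphorylation, the step that releases NF-kB, and TPCK inhibits proteases of the chymotrypsin kind. Each of the 6 groups held 3 bead arrays. Untreated cells of both lines were incubated without either agent, and whether they received the solvent is not given in the labels. The series text pairs TPCK with Raji alone, whereas the sample titles also give it for DG75, and the titles were followed. No allele or transgene is named for either line, and each condition rests on 1 line of each kind. Whether replicate arrays stand for separate cultures is not stated in the labels, and p-values then cover only the spread between these arrays, which may be technical.

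Integrins are pairs of an alpha and a beta chain that span the membrane. ITGAL and ITGB2 together make LFA-1, which holds lymphocytes to cells that carry ICAM1 or ICAM3. ITGA4 pairs with ITGB1 to make VLA-4, a receptor for VCAM1 and fibronectin, or with ITGB7 to make the gut-homing receptor for MADCAM1. CD58 on a B cell is the ligand of CD2 on T cells and natural killer cells, and CD44 is a receptor for hyaluronan.

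ICAM1 is a textbook target of NF-kB, so its promoter is shown beside that of CXCL8, a chemokine gene used here as a check of the NF-kB response. The sequences are from RefSeq on GRCh38.p14 and give the 250 bases before each annotated start, 5′ to 3′ on the gene's strand, with capitals marking the match to GGAAATTCC on either strand. ICAM1 lies at chr19:10270870-10271119 on the plus strand and CXCL8 at chr4:73740319-73740568 on the plus strand.
ICAM1: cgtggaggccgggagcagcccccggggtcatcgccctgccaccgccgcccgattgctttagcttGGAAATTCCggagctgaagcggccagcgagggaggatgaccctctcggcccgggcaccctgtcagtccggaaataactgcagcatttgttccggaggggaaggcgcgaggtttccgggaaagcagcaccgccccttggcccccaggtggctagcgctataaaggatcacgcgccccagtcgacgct
CXCL8: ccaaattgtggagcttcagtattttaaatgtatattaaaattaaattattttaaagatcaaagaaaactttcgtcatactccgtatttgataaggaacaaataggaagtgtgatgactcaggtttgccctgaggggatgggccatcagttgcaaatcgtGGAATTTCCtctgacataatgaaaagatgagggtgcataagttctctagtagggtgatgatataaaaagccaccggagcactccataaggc
The match began 186 bases before the start of ICAM1, and in CXCL8 it lay on the opposite strand, 91 bases before the start. Of all 35114 promoter windows of this length in the table, 145 held GGAAATTCC on at least 1 strand, which is 0.413%. A promoter was found for 6 of the 8 genes, with ITGAL and ITGB2 unmatched. Among those 6, ICAM1 was the one whose window held GGAAATTCC, and none of the 6 held GGG followed by 2 of any base and TTTCC, or GGG followed by 2 of any base and TTCCC, on either strand. Those motifs were present in 1.73% and 1.97% of all windows. A looser form, GGG, 5 of any base and CC, overlaps both and was in 54.4% of all windows. A match describes the letters and not the binding of a factor.

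Each array detected 13072 to 15903 probes, at a mean raw signal of 171 to 298. B cell identity was checked with 10 markers, of which 8 were measured. All 8 were detected on every Raji array, and 7 on every DG75 array, where CR2, a complement and Epstein-Barr virus receptor, was undetected. Array 7, of the DG75 TPCK group, stood apart with 687 probes detected on no other array, against 50 to 327 such probes elsewhere. Arrays are named by the number that opens each column name, whose meaning is not stated. The numbers run in blocks of 3 by group, with untreated cells at 13 to 18, so any order behind them and the group cannot be told apart.

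Between the lines 5 of the 7 tested adhesion genes differed, and after treatment none was called. Untreated DG75 had less CD58 and ITGA4 and more ICAM3, ITGAL and ITGB2 than untreated Raji, while ITGB7 and ICAM1 did not pass the test. The same 5 genes were called, in the same directions, between the lines under Bay-11 and under TPCK. ITGA4, 1 of the 5, passed the filter through Raji alone, so its difference was bound to appear and adds little to the count. Calls are from limma with Benjamini-Hochberg adjustment over all 10697 genes at an adjusted p under 0.05. Such calls covered 38.9% of genes between untreated lines, 44.4% under Bay-11 and 38.4% under TPCK, so 5 of 7 genes is to be read against a large background. Of the 5, 3 were higher in DG75, where 20.7%, 25.5% and 19.3% of all genes were higher, and 2 were lower, where 18.2%, 18.9% and 19.2% were. The median difference of the 7, DG75 minus Raji, was -0.16 untreated, -0.30 under Bay-11 and -0.03 under TPCK, against 0.03, 0.06 and 0.03 over all genes. On simulated arrays for the untreated lines, this test called 18% of genes changed by 0.5 log2 units and 83% of those changed by 1 unit. Only 100 genes at each size were changed there, far fewer than were called between the real lines. These rates therefore do not give the sensitivity of the real comparison, where the adjustment is less strict. Levels below are normalised log2 signals, on which 1 unit is a doubling. Fewer cells that carry a transcript and less of it per cell cannot be told apart in these bulk samples. Without array 7 and array 10, a DG75 Bay-11 array, 5 of the 7 were again called in each of these comparisons.

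**Figure D1:**
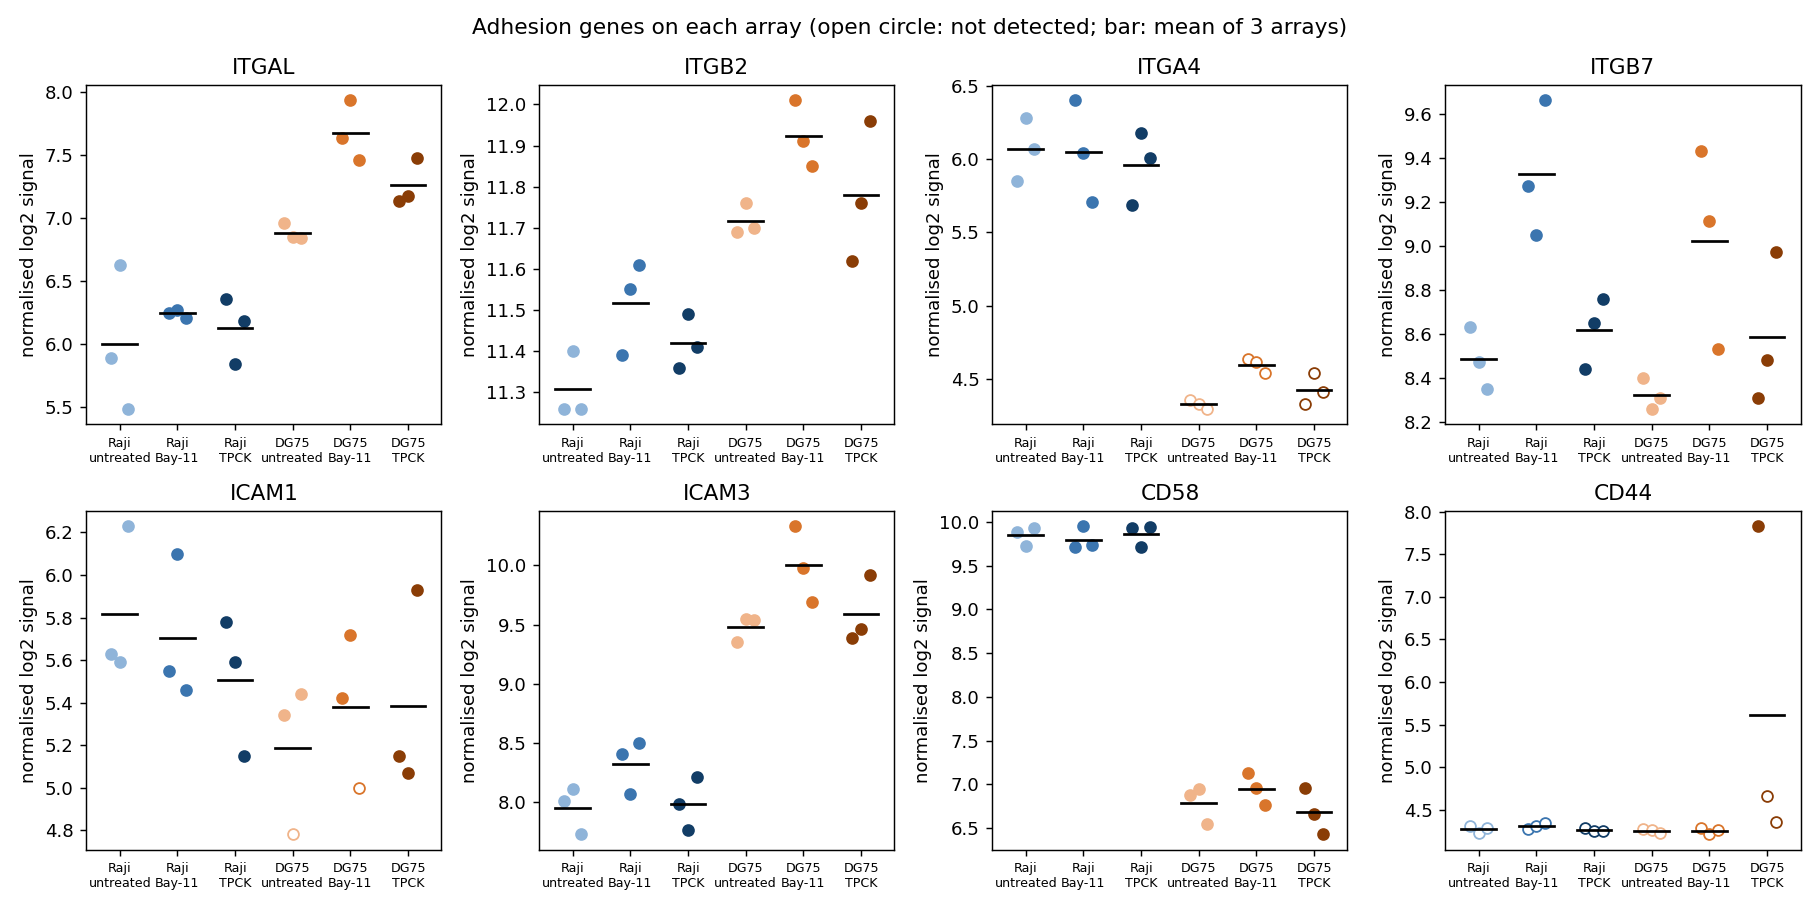
Normalised log2 signal (vertical axis, own range in each panel) of the 8 adhesion genes on each of 18 arrays, by line and treatment. Points are arrays, open where the probe was not detected, and bars are means of 3 arrays. CD58 and ITGA4 are lower on every DG75 array, ICAM3 and ITGAL are higher, and CD44 stands out at 7.83 on 1 DG75 TPCK array.

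LFA-1 is taken first. ITGAL, its alpha chain, read 5.89, 6.63 and 5.49 in untreated Raji, 6.25, 6.27 and 6.21 after Bay-11 and 6.36, 5.84 and 6.18 after TPCK. In DG75 it read 6.96, 6.85 and 6.84 untreated, 7.63, 7.93 and 7.46 after Bay-11 and 7.13, 7.17 and 7.47 after TPCK. Every DG75 array lay above every Raji array, and the untreated Raji arrays had the widest spread, 6.0 ± 0.58 (SD, n = 3). ITGAL was 0.88 ± 0.22 (SE) log2 units higher in untreated DG75, a 1.84-fold difference with a limma adjusted p of 0.0042. The difference was 1.43 under Bay-11 (limma adjusted p = 5.65e-05) and 1.13 under TPCK (0.000602). In the order of group means, DG75 Bay-11 overlapped DG75 TPCK, both lay above untreated DG75, and the 3 Raji groups overlapped each other.

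ITGB2, the beta chain of LFA-1, read 11.26, 11.40 and 11.26 in untreated Raji, 11.39, 11.55 and 11.61 after Bay-11 and 11.36, 11.49 and 11.41 after TPCK. DG75 arrays read 11.69, 11.76 and 11.70 untreated, 12.01, 11.91 and 11.85 after Bay-11 and 11.62, 11.76 and 11.96 after TPCK. The lines were separate within each treatment, but the gap was small and the lowest DG75 array, at 11.62, was next to the highest Raji array, at 11.61. The difference was 0.41 ± 0.11 untreated (1.33-fold, limma adjusted p = 0.00704), 0.41 under Bay-11 (0.00679) and 0.36 under TPCK (0.0167). A second ITGB2 probe, fitted with all 17652 kept probes, gave 0.25 untreated (limma adjusted p = 0.11), 0.47 under Bay-11 (0.00426) and 0.38 under TPCK (0.0186). With arrays centred on their medians in place of quantile normalization the call was lost in untreated cells, where the difference was 0.36 with a limma adjusted p of 0.0755, and under TPCK, at 0.23 and 0.253. Over all alternatives the adjusted p of ITGB2 ran from 0.00358 to 0.0755 untreated, from 0.00328 to 0.0623 under Bay-11 and from 0.00552 to 0.521 under TPCK. Without normalization the adjusted p was 0.0542 untreated, 0.0623 under Bay-11 and 0.521 under TPCK, and with only the groups compared it was 0.0614 under Bay-11 and 0.0674 under TPCK, while the untreated call was kept. Leaving out array 1 of Raji TPCK or array 9 of DG75 TPCK also ended the TPCK call, with differences of 0.33 (limma adjusted p = 0.0603) and 0.27 (0.0852).

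Of the alpha-4 integrin chains, ITGA4 was lower and ITGB1 higher in DG75, and ITGB7 was not called between lines. ITGA4, the alpha chain shared by VLA-4 and the ITGB7 integrin, read 5.85, 6.28 and 6.07 in untreated Raji, 6.40, 6.04 and 5.71 after Bay-11 and 5.69, 6.18 and 6.01 after TPCK. It was detected on all 9 Raji arrays and on no DG75 array, where readings ran from 4.30 to 4.64. As ITGA4 passed the filter through Raji alone, it had to differ, and the test adds little. Against the lowest signal that counted as detected, ITGA4 was at least 2.03-fold lower in untreated DG75 (limma adjusted p = 2.38e-07), at least 2.10-fold lower under Bay-11 (1.96e-06) and at least 2.06-fold lower under TPCK (1.14e-06). ITGB1, the beta chain that completes VLA-4, went the other way, at 10.12 ± 0.11 (SD, n = 3) in untreated Raji and 11.48 ± 0.11 in untreated DG75. That was 1.36 ± 0.13 (SE) log2 units higher in DG75, with a limma adjusted p of 2.51e-07, and 1.45 and 1.31 higher under Bay-11 and TPCK (1.15e-07 and 4.13e-07).

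ITGB7, the beta chain of the gut-homing integrin, read 8.63, 8.47 and 8.35 in untreated Raji and 8.40, 8.26 and 8.31 in untreated DG75. These groups overlapped. The difference between untreated lines was -0.16 with a 95% interval of -0.61 to 0.29 (limma adjusted p = 0.602), and it was -0.30 under Bay-11 and -0.03 under TPCK, neither called. This interval does not show that the levels were alike.

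The ICAM genes, ligands of LFA-1, lie on chromosome 19 with 5 genes between them in RefSeq, ICAM4, ICAM5, ZGLP1, FDX2 and RAVER1. ICAM3 read 8.01, 8.11 and 7.73 in untreated Raji, 8.41, 8.07 and 8.50 after Bay-11 and 7.99, 7.77 and 8.21 after TPCK. In DG75 it read 9.35, 9.55 and 9.54 untreated, 10.33, 9.98 and 9.69 after Bay-11 and 9.39, 9.46 and 9.92 after TPCK. No DG75 array fell to the Raji range. ICAM3 was 1.54 ± 0.19 log2 units higher in untreated DG75, which is 2.90-fold (limma adjusted p = 4.46e-06), 1.67 higher under Bay-11 (1.61e-06) and 1.6 under TPCK (2.89e-06).

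ICAM1 was dim in both lines. It read 5.63, 5.59 and 6.23 in untreated Raji, 5.55, 6.10 and 5.46 after Bay-11 and 5.78, 5.59 and 5.15 after TPCK, and was detected on all 9 arrays. In DG75 it read 5.34, 4.78 and 5.44 untreated, 5.42, 5.72 and 5.00 after Bay-11 and 5.15, 5.07 and 5.93 after TPCK, and the readings of 4.78 and 5.00 were not detected. Untreated DG75 arrays all lay below untreated Raji arrays, while the treated groups overlapped between lines. The untreated difference of -0.63 ± 0.27 had a 95% interval of -1.21 to -0.05 and a limma adjusted p of 0.0824, so it was not called. Under Bay-11 and TPCK the differences were -0.32 (limma adjusted p = 0.371) and -0.12 (0.761).

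CD58 had the largest difference between lines among the 7 genes. It read 9.88, 9.72 and 9.93 in untreated Raji, 9.71, 9.95 and 9.73 after Bay-11 and 9.93, 9.71 and 9.94 after TPCK. DG75 arrays read 6.88, 6.95 and 6.55 untreated, 7.13, 6.96 and 6.76 after Bay-11 and 6.96, 6.66 and 6.43 after TPCK. CD58 was detected on all 18 arrays, and no DG75 reading came near a Raji reading. The untreated difference was -3.05 ± 0.15, or 8.28-fold lower in DG75 (limma adjusted p = 1e-10), and it was -2.84 under Bay-11 (2.07e-10) and -3.17 under TPCK (6.19e-11). A second CD58 probe gave -2.82, -2.92 and -3.24. The probes of CD58 correlated with r = 0.995 over the 18 arrays and those of ITGB2 with r = 0.932, values that carry the difference between lines.

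In the order of group means, neighbouring groups of ITGB2, ITGA4, ICAM3 and CD58 overlapped within a line and were separate between lines, and for ITGB7 and ICAM1 every pair of neighbours overlapped.

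**Figure D2:**
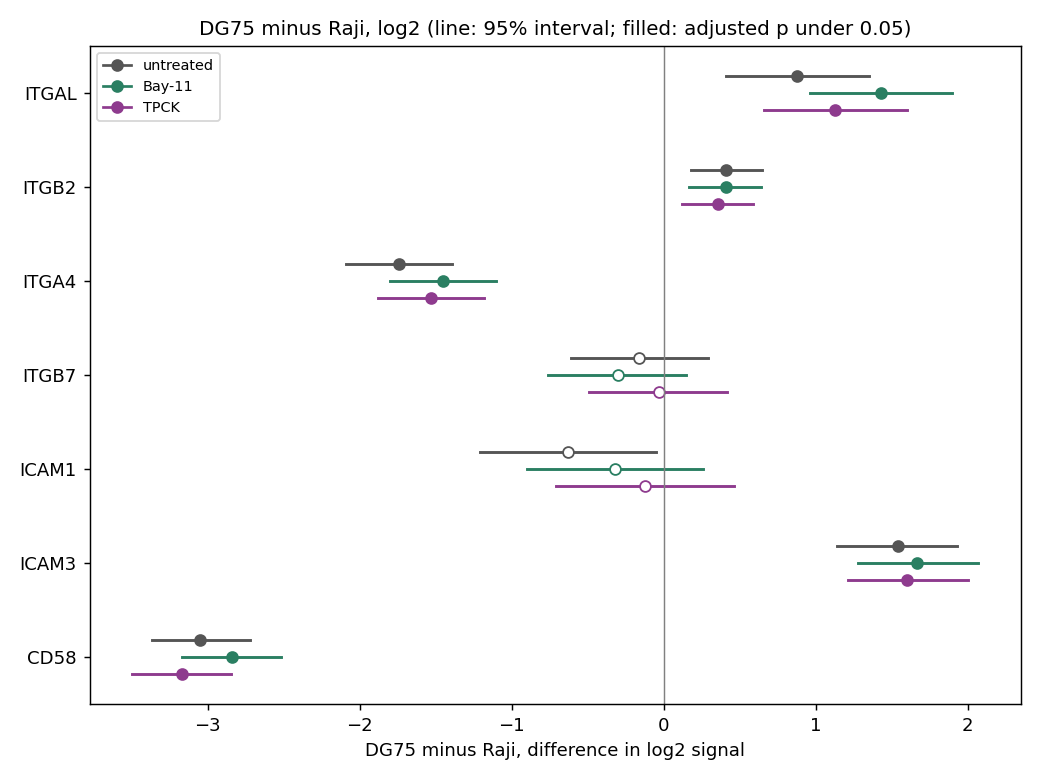
Difference in normalised log2 signal, DG75 minus Raji (horizontal axis), for 7 adhesion genes in untreated, Bay-11 and TPCK cells. Points are limma estimates, lines are 95% intervals, and filled points have an adjusted p under 0.05. CD58 lies near -3 and ICAM3 between 1.54 and 1.67 in all conditions, and the intervals of ITGB7 include 0 in each.

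CD44 was undetected on nearly all arrays. Its first probe read 4.21 to 4.66 on 17 arrays, with none detected, and 7.83 on array 7 of DG75 TPCK, whose companion arrays read 4.66 and 4.36. A second probe was detected at 4.95 on array 7 and at 5.18 on array 1, of Raji TPCK, and the 2 probes correlated with r = 0.548. Fitted without the filter, CD44 in DG75 TPCK against untreated DG75 gave 1.36 ± 0.56 log2 units and a limma adjusted p of 0.407, a value that rests on array 7.

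Most measured markers of fibroblasts, endothelium and epithelium moved with CD44 on that array. Of the 9 listed, 8 were measured and 7 were detected on array 7, against at most 2 on any other array. Their summed level was 11.71 in log2 units on array 7, against 7.42 and 7.46 on the other DG75 TPCK arrays, 7.34 to 7.51 on the other DG75 arrays and 7.98 to 8.20 in Raji. The collagen genes COL1A2 and COL3A1 read 10.03 and 9.29 there and at most 4.69 and 4.68 elsewhere, and the keratin KRT19 read 9.15 against at most 4.48. COL1A1 was detected in Raji too, and KRT18 was undetected on array 7. EPCAM did not rise, at 5.33 on array 7 and up to 5.38 elsewhere. Of 4 myeloid markers measured of 6 listed, CD14 read 8.11 on array 7 and at most 5.90 elsewhere, and CSF1R read 6.04 there and was undetected on the other DG75 arrays. LYZ read 5.29 and FCGR1A 4.63, both within the range of other arrays. The summed myeloid level reached 8.67 in the DG75 TPCK group, against at most 7.31 in the other DG75 groups and 7.52 to 8.17 in Raji. Of 19 probes for other integrin subunits, 4 were detected on array 7 alone, against 0 of 26 for other adhesion receptors and 687 of all 49576 probes. An ITGB5 probe read 7.48 there, against at most 4.77 elsewhere. ITGA11, ITGA5 and a further ITGB1 probe stayed near background, at 4.83, 4.84 and 4.83, against at most 4.52, 4.59 and 4.77 elsewhere. The part of these markers in the CD44 signal was not tested.

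In treated cells none of the 7 genes was called after either agent in either line. Limma calls covered 1.51% of genes for Bay-11 and 0.439% for TPCK in Raji, and 0.617% and 0.495% in DG75. At an unadjusted limma p under 0.05 there were 1 of 7 genes for Bay-11 in Raji, 3 for Bay-11 in DG75 and 0 for TPCK in each line, against 2006, 2025, 707 and 1230 of 10697 genes. The median change of the 7 was 0.21 after Bay-11 and 0.05 after TPCK in Raji, and 0.27 and 0.11 in DG75. Over all genes the medians were 0.01, 0.01, 0.05 and 0.02. Without normalization between arrays 5 of the 7 were called after TPCK in Raji, where the median of all genes moved to 0.66.

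ITGB7 came closest to a call. After Bay-11 it read 9.27, 9.05 and 9.66 in Raji, above all 3 untreated arrays, and 9.43, 9.11 and 8.53 in DG75, again above the untreated arrays. The difference from untreated cells was 0.84 ± 0.21 in Raji (95% interval 0.38 to 1.29, limma adjusted p = 0.0612) and 0.70 ± 0.21 in DG75 (0.24 to 1.15, adjusted p = 0.131). After TPCK it read 8.44, 8.65 and 8.76 in Raji and 8.31, 8.48 and 8.97 in DG75, overlapping the untreated arrays of each line. In Raji the Bay-11 difference passed the threshold under 7 of 16 alternatives, with limma adjusted p from 0.00169 to 0.32. Among these were the fit without arrays 7 and 10 (0.84, adjusted p = 0.0217), the fit without array 5 of Raji Bay-11 (0.98, 0.0471) and the deposited processed values (1.29, 0.00169, or 0.0049 with the replicate number as a block). The processed values, without the block, gave 1656 calls among 7990 genes, 1599 of them higher after Bay-11. The median of all genes was 0.19 there, so that ITGB7 call sits within a general upward shift.

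ITGAL, ICAM3 and ITGB2 also read higher after Bay-11 in DG75, with no overlap with untreated arrays, and none was called. ITGA4 did so too while undetected. The share of all genes without such overlap was not counted, so whether these genes stood out from the background cannot be told. At an unadjusted limma p under 0.05 this comparison had 3 of the 7 genes and 2025 of all 10697. ITGAL differed by 0.79 ± 0.22 (limma adjusted p = 0.0995) and ICAM3 by 0.52 ± 0.19 (0.172). ITGB2 differed by 0.21 ± 0.11 (limma adjusted p = 0.321), and its second probe by 0.38 ± 0.12 (0.137). Without array 12, the DG75 Bay-11 array with the lowest ITGAL, ITGB2, ITGB7, ICAM3 and CD58, all of ITGB7 (0.94, limma adjusted p = 0.0161), ITGAL (0.90, 0.0354) and ICAM3 (0.67, 0.0432) were called, and calls over all genes rose from 66 to 1061. Over the 14 alternatives the limma adjusted p ran from 0.0354 to 0.38 for ITGAL, 0.0161 to 0.44 for ITGB7 and 0.0432 to 0.549 for ICAM3. In Raji the same agent gave 0.24 for ITGAL (limma adjusted p = 0.595) and 0.38 for ICAM3 (0.287).

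ICAM1, the NF-kB target shown above, did not pass the test in any treatment. Its change was -0.11 after Bay-11 (95% interval -0.70 to 0.47) and -0.31 after TPCK (-0.89 to 0.27) in Raji, and 0.19 after each agent in DG75 (-0.39 to 0.78). CXCL8, with the same motif in its window, fell by 1.09 log2 units after Bay-11 in Raji (limma adjusted p = 0.012), by 1.48 after Bay-11 in DG75 (0.000908) and by 1.43 after TPCK in DG75 (0.000637). It changed by -0.64 after TPCK in Raji (0.266). Without array 17, an untreated Raji array, the Bay-11 change in Raji was -1.06 and missed the threshold (limma adjusted p = 0.0503). In DG75 CXCL8 was called in 12 of 14 alternatives for Bay-11 and in 13 of 16 for TPCK. The difference between the genes was not tested. CXCL8 came from a list of 10 NF-kB response genes, of which 9 were tested. Of these 2 fell after Bay-11 in Raji, 0 after TPCK in Raji and 3 after each agent in DG75, none rose, and the median changes were -0.01, -0.14, -0.52 and -0.40, against 0.01, 0.01, 0.05 and 0.02 over all genes. CD69, a lymphocyte activation marker, was also among those that fell, by 1.39 after Bay-11 in Raji (limma adjusted p = 0.00299), whereas NFKB2, an NF-kB subunit, changed by 0.74 in Raji (0.102) and 0.99 in DG75 (0.0544) after Bay-11, and RELB by 0.56 (0.419) and 0.52 (0.441). CD58 changed by -0.05 and 0.02 after Bay-11 and TPCK in Raji and by 0.16 and -0.11 in DG75. With this probe every 95% interval lay within 0.48 units of 0. The second CD58 probe, fitted with all kept probes, changed by 0.01 and 0.1 in Raji and by -0.08 and -0.32 in DG75. That last change, after TPCK, had an SE of 0.13 and was not called (limma adjusted p = 0.433). Its arrays read 6.52 to 6.68, below the untreated 6.93 to 6.96.

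The lines' responses were compared by an interaction term. None of the 7 genes, and none of the 10697, was called for Bay-11 or for TPCK, a share of 0%. At an unadjusted limma p under 0.05 there were 0 of 7 genes for each agent, and 692 and 595 of all genes. The widest gaps were 0.55 ± 0.31 for ITGAL under Bay-11 (95% interval -0.11 to 1.21, limma adjusted p = 0.798) and 0.50 ± 0.39 for ICAM1 under TPCK (-0.32 to 1.33, 0.961). Comparisons of Bay-11 and of TPCK within a line share their 3 untreated arrays.

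**Figure D3:**
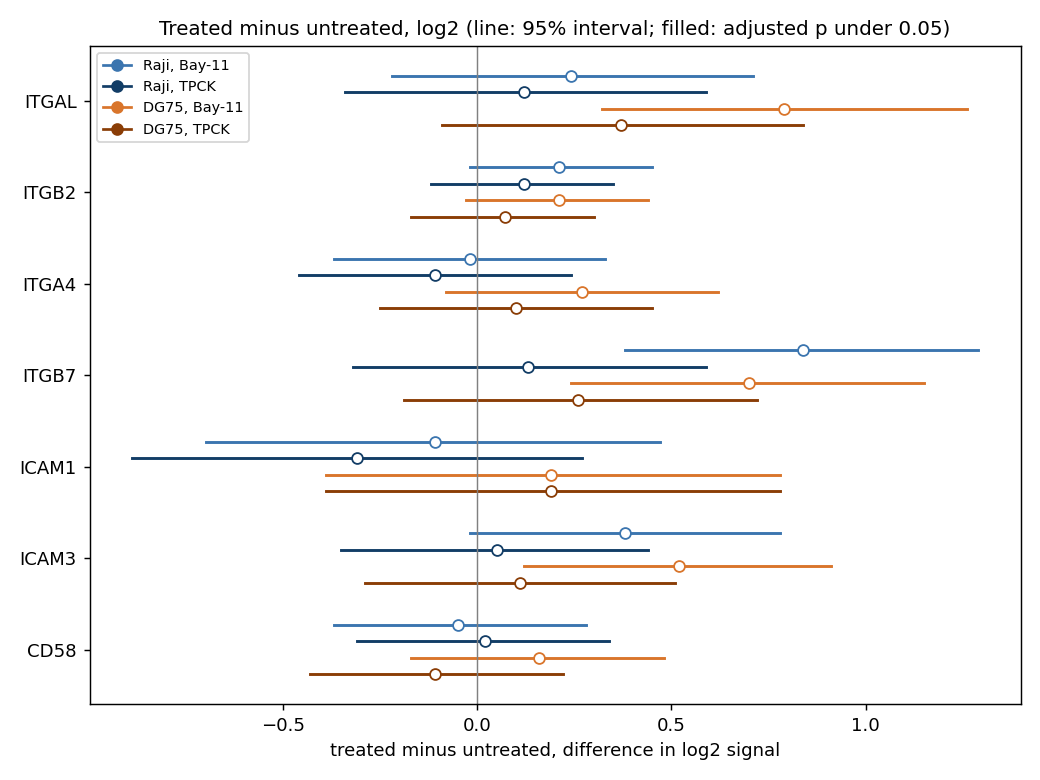
Change in normalised log2 signal, treated minus untreated (horizontal axis), for 7 adhesion genes in each line and with each agent. Points are limma estimates, lines are 95% intervals, and open points did not reach an adjusted p under 0.05. All points are open, and ITGB7 after Bay-11 lies at 0.84 in Raji and 0.70 in DG75.

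Among other genes of adhesion, integrin subunits were measured for 15 of 22 listed genes and tested for 8. Between untreated lines 1 was higher in DG75, ITGB1, and 1 lower, ITGAM, against 38.9% of all genes called. ITGAM passed the filter through Raji alone, was detected on 1 untreated Raji array and no DG75 array, and sat too near background for a fold, and its call was lost in 6 alternatives, 5 of them leaving out array 13, 14, 15, 16 or 18. Of 29 other receptors and ligands 18 were tested, with 2 higher and 6 lower in DG75. VCAM1, the ligand of VLA-4, read 9.08 ± 0.20 (SD, n = 3) in untreated Raji and was undetected in untreated DG75, at least 16.4-fold lower (limma adjusted p = 4.73e-10). That bound is of its brightest probe, and its other probes read at most 6.31 and 5.14 on any array. Over the alternatives the untreated VCAM1 difference ran from -4.85 to -2.28 log2 units. CD48, a relative of CD58 that binds CD244, differed by -2.52 ± 0.12 log2 units (6.7e-11), and ALCAM, the ligand of CD6, by -1.84 ± 0.26 (2.2e-05). CD38, an ectoenzyme that binds PECAM1, was 1.57 ± 0.13 higher in DG75 (5.12e-08).

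Proteins that activate integrins or tie them to actin were tested for 36 of 40 listed genes, and 9 were higher and 8 lower in untreated DG75, against 20.7% higher and 18.2% lower over all genes. The parvins, which join integrin-linked kinase to actin, split. PARVB read 7.49 in untreated Raji and was undetected in untreated DG75, at least 5.43-fold lower (limma adjusted p = 6.9e-10), whereas PARVG was 2.20 ± 0.17 log2 units higher in DG75 (1.63e-08). ACTN1, an actin crosslinker, and RDX, which ties membrane proteins to actin, were undetected in untreated Raji and at least 2.62-fold and 1.95-fold higher in DG75 (2.5e-06 and 6.85e-07). VCAM1, PARVB, ACTN1 and RDX, each undetected in 1 untreated line, and ITGAM passed the filter through the other line. A difference in these genes was bound to appear. The same holds for CD6 among the receptors and TLN2 among the linkers, both counted as lower and detected on no DG75 array. The counts called in the lists therefore include genes of this kind. The median difference was 0.08 for the integrin subunits, -0.17 for the receptors and ligands and 0.15 for the linkers, against 0.03 over all genes. None of these genes, 8, 18 and 36 by list, was called after either agent in either line.

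**Figure D4:**
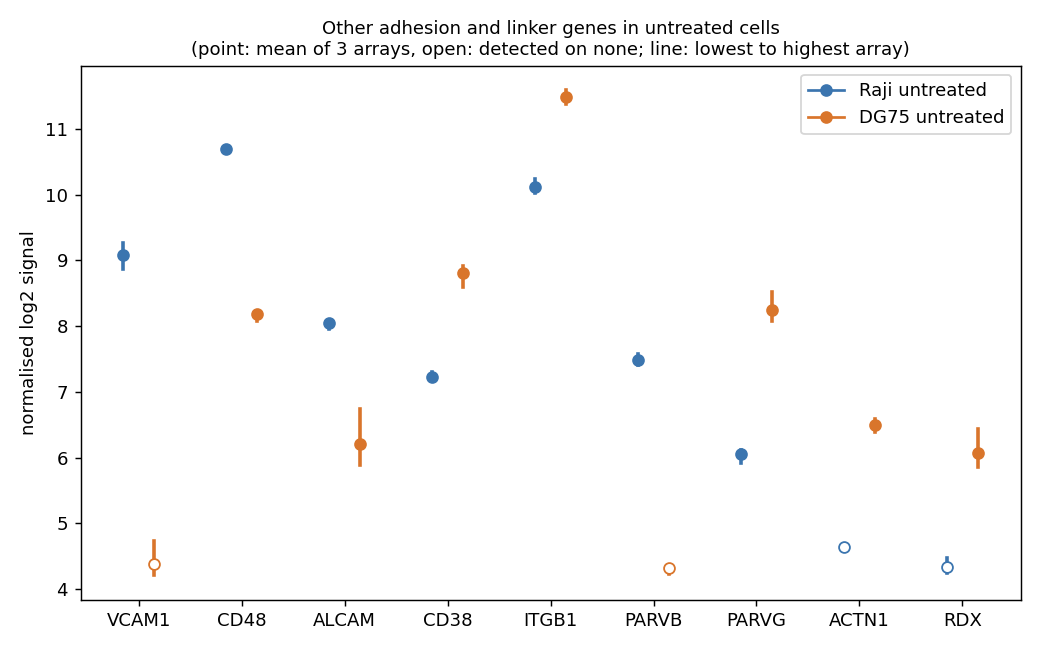
Normalised log2 signal (vertical axis) of 9 further adhesion and linker genes in untreated Raji and untreated DG75. Points are means of 3 arrays, open where no array detected the probe, and lines run from the lowest to the highest array. VCAM1 lies at 9.08 in Raji and is open at 4.39 in DG75, and PARVB and PARVG differ in opposite directions.

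The genes whose readings most resembled those of each adhesion gene were found by Pearson correlation over the 18 arrays, which share the difference between lines, so r within the 9 arrays of each line is given beside it as a description. CD58 was most like KYNU, with r of 0.996 over all arrays, 0.253 in Raji and 0.825 in DG75. IFNGR1 and LAMC3 followed at 0.996 and 0.995. ITGA4 was most like UTS2 (0.980, but 0.569 in Raji and 0.164 in DG75, where ITGA4 was undetected), then HBG2 and TRAF1. For these genes the likeness over all arrays was mostly that of high Raji and low DG75.

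ITGB7 kept its likeness within each line, with r of 0.944 to PCNX3 over all arrays, 0.973 in Raji and 0.930 in DG75, and CDC25B and SUPT16H came next at 0.934 and 0.930. ICAM3 was nearest to LRBA (0.989, with 0.853 in Raji and 0.932 in DG75), KANK1 and RASAL1. ITGB2 was nearest to LCMT2 (0.970, with 0.821 and 0.950), XKR8 and MYC, and ITGAL to ABCG1 (0.961, with 0.908 and 0.778), LSM10 and KDM1A. ICAM1 had the weakest nearest gene, BRWD3 at 0.811, followed by EIF2S3 and MSH6. Among the adhesion genes themselves, ITGAL and ITGB2, the chains of LFA-1, had r of 0.898 over all arrays, 0.399 in Raji and 0.781 in DG75. Such values were not particular to this pair. ITGAL and ICAM3 had 0.930, 0.586 and 0.778, and ITGB2 and ICAM3 had 0.934, 0.487 and 0.935. In DG75 ITGB7 had 0.853 with ITGAL and 0.903 with ITGB2. ITGB7 and ICAM3 had 0.094 over all arrays, 0.829 in Raji and 0.947 in DG75. Pairs with CD58 were lower in DG75, from -0.334 with ICAM1 to 0.337 with ITGA4. ITGA4 and ITGB7 had 0.240 over all arrays, -0.077 in Raji and 0.766 in DG75. As ITGA4 was undetected in DG75, that last value describes background readings, which also gave 0.847 with ITGAL there.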

How the data were processed

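The 8 genes, the further gene lists and the tests were chosen with earlier results of these data known. The authors deposited a raw table of log2 bead signals, per the file headers, without background subtraction or normalization, with a detection p-value beside each signal. The software and build behind it are not given in the sources. Of its signal columns, 18 were given a group and 0 were unused. Another deposited table, of log2 values for 22789 probes, with replicate numbers, served as an alternative within Raji and for DG75 TPCK against control. Its normalization is unknown, its Raji columns are centred near 0, and its 6 DG75 columns used here are raw signals.

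Signals were corrected with normexp from the detection p-values (offset 16) and quantile normalized by neqc of limma 3.58.1 in R 4.3.3. Of the probes 17109 had 1 symbol in the platform annotation, 3 had several and 32467 were unnamed here; 17652 were kept, 14195 of them with a symbol. The kept probe with the highest mean stood for each gene. A model with 6 group means used all 18 arrays (lmFit and eBayes, 12 residual and 4.26 prior degrees of freedom) and was tested on simulated data. Where a gene was undetected on all arrays of a group, its fold is a bound against the higher of its own value and the lowest detected signal per array. The number of arrays limits the precision.

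The genes named are the 8, up to 4 called genes with the largest change of each further list, and for each tested gene the 3 most correlated others. CXCL8 where it was not called, and the array 7 probes and markers, were named with their values in view. Alternatives changed the normalization, background correction, filter, probe choice, arrays and value table.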

Additional observations from a re-analysis of the deposited data

Results flagged for a closer look

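CD44 was left out of the tests by the detection filter, yet single arrays detected it. Its first probe read 7.83 on array 7 of DG75 TPCK, above all untreated arrays, where it was undetected. Its second probe read 5.18 on array 1 of Raji TPCK and 4.95 on array 7 of DG75 TPCK and was undetected on all untreated arrays. The marker values that moved with CD44 on array 7 are given with CD44 above, and no such marker rise was seen on array 1, where 1 of 8 markers was detected.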

How the results depend on the processing

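Of 15 called differences between lines, 201 of 210 alternative values stayed called in the same direction and 9 lost the call, all of ITGB2, while 0 reversed. These include ITGA4, called in all 14 alternatives of each comparison between lines. As it passed the filter through Raji alone, its calls were bound to appear and add little to this count. Of 36 uncalled values, 497 of 558 alternatives stayed uncalled in the same direction, 17 became called and 44 changed sign. Counts of called genes moved more. For Bay-11 in Raji 161 became 35 with median centring, 640 without normalization, 487 without arrays 7 and 10, 413 with only the groups compared and 1656 in the deposited processed values, with members called at 1, 1, 1 and 2 for the last 4, and at 1 without background correction. For TPCK in Raji 47 became 5059 without normalization, with 5 members called where the median of all genes moved by 0.66, and 187 in the processed values. For Bay-11 in DG75 66 became 30, 10, 35 and 4 with median centring, without normalization, without arrays 7 and 10 and with only the groups compared. For TPCK in DG75 53 became 13 without normalization and 26 with only the groups compared. Without normalization 4163 and 4111 calls between lines, untreated and under TPCK, became 2598 and 2336, and the medians of all genes moved to 0.39 for Bay-11 in Raji and 0.35 and 0.39 for Bay-11 and TPCK in DG75. For the Bay-11 interaction 0 became 1 with median centring, 2 without background correction and 3 without arrays 7 and 10.

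Leaving out 1 array gave 27 to 202 and 19 to 26 calls for Bay-11 and TPCK in Raji, 15 to 1061 and 28 to 39 in DG75, 3520 to 3760, 4031 to 4809 and 3435 to 3802 between lines (untreated, Bay-11, TPCK) and 0 to 1 for the Bay-11 interaction. Members called ran from 0 to 1 for Bay-11 in Raji, 0 to 3 for Bay-11 in DG75 and 4 to 5 between lines under TPCK.

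The values that changed sign follow. Median centring gave -0.05 and -0.29 for ITGA4 after Bay-11 and TPCK and -0.04 for ITGB2 after TPCK, in DG75. Without normalization, in Raji, ITGA4 gave 0.43 and 0.52 and ICAM1 0.28 and 0.23 after Bay-11 and TPCK, CD58 0.39 after Bay-11 and CXCL8 0.09 after TPCK, against -0.64 in the reported fit; CD58 gave 0.33 after TPCK in DG75 and ITGB7 0.18 between untreated lines. Without arrays 7 and 10 ITGB7 gave 0.11 between lines under TPCK. The processed values gave 0.27, 0.13 and 0.07 for ITGA4, ICAM1 and CD58 after Bay-11 and 0.17 for ITGA4 after TPCK in Raji, and 0.29 for CD58 after TPCK in DG75. With 1 array left out, in Raji after Bay-11 ITGAL ran from -0.01 to 0.56, ITGA4 from -0.19 to 0.15 and ICAM1 from -0.31 to 0.09, and after TPCK ITGAL from -0.13 to 0.44, ITGA4 from -0.22 to 0.03, ICAM3 from -0.07 to 0.16 and CD58 from -0.04 to 0.09. In DG75 ICAM1 ran from -0.01 to 0.38 after Bay-11, and after TPCK ICAM1 from -0.08 to 0.35, ITGB2 from -0.02 to 0.15, ICAM3 from -0.05 to 0.21 and CD58 from -0.25 to 0.02. Between lines under TPCK ITGB7 ran from -0.22 to 0.11 and ICAM1 from -0.40 to 0.03. The causes were not tested. Among 41 values of other named genes 565 of 580 alternatives were unchanged in call and direction. ITGAM lost its call in 6 and CXCL8 in Bay-11 and TPCK comparisons in 7. For Bay-11 in Raji these were without array 17, an untreated Raji array (-1.06, limma adjusted p = 0.0503), and without normalization (0.179). In DG75 CXCL8 lost its call without normalization, with limma adjusted p of 0.0788 for Bay-11 and 0.133 for TPCK. It was also lost with only the groups compared (Bay-11, 0.0626) and in the processed values (TPCK, 0.153, or 0.123 with the replicate block).

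Replicate numbers stand only in the processed table. Same-numbered deviations there correlated with 0.068, -0.164 and -0.018 between untreated and Bay-11 Raji columns, 0.032, -0.058 and 0.062 between untreated and TPCK Raji columns and 0.104, 0.048 and 0.076 between untreated and TPCK DG75 columns. Not every one was over 0.1 in any comparison, so the numbers were not taken to pair samples. With the replicate block the calls were 1692 and 196 for Bay-11 and TPCK in Raji and 47 for TPCK in DG75, against 43 without it, and the members ITGA4, ICAM1 and CD58 gave 0.27, 0.13 and 0.07 after Bay-11. ITGB7 and ICAM3, the 2 members called in Raji after Bay-11, were the same with and without the block. The processed table allowed no fit for the other comparisons. Dim probes limit ICAM1, CD44 and, in DG75, ITGA4.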
